A study of Homo sapiens with 6 samples.

Results

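The clustered histone genes code for the linker histone H1 and the core histones H2A, H2B, H3 and H4, and stand in groups named HIST1 to HIST4. They were taken as every protein-coding row of the deposited gene table whose symbol begins with HIST1H, HIST2H, HIST3H or HIST4H, which gave 71 of 58735 genes. RNA was sequenced from TPC1, an established line of papillary thyroid cancer cells, 60 h after transfection with siRNA. In 3 libraries (si-circ_0000839 replicates 1 to 3) the siRNA was directed at the circular RNA hsa_circ_0000839, and in 3 libraries (NC replicates 1 to 3) it was a negative control. Per the labels, all 6 libraries came from the same line and both groups were transfected, so neither was untreated. The circular RNA has no row of its own in the gene table, and its silencing was not checked here. The labels do not tell whether replicates were separate cultures, and the p-values therefore describe the spread between these libraries, which may be technical.

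Most clustered histone genes are switched on as cells enter S phase, when the factor NPAT, itself driven by cyclin E with CDK2, gathers at their promoters. Their messenger RNAs end in a conserved stem-loop bound by the protein SLBP instead of a poly(A) tail, and they are degraded when DNA synthesis stops. Several of these genes can also give a longer, spliced or read-through transcript with a poly(A) tail, mostly in cells that are not dividing. Replication-independent histone genes, such as H3F3A, H3F3B, H2AFZ and H1F0, give polyadenylated messages throughout the cell cycle. Whether poly(A) selection was used is not stated in those sources that were read here, and the cells were not sorted by cell cycle phase, so fewer cells in S phase and less histone RNA per cell cannot be told apart.

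The stem-loop was searched for in the GENCODE 29 transcripts (build GRCh38) within 150 bases after the stop codon, as a 16-base run that begins with GG and ends with CC and forms 6 base pairs (G with T allowed) around 4 bases. The gene models of 35 of the 71 genes stop within 10 bases of the stop codon, before any stem-loop could lie. Of the 36 with more annotated sequence, 32 held it, at 23 to 68 bases after the stop codon (median 37). Other protein-coding genes were searched only where at least 150 bases after the stop codon were annotated, and 416 of 17608 (2.36%) held it. No such limit was set for the histone genes. The 6 forms found are shown because the message end is what sets this family apart and because they differ by histone class. The stem arms are in capitals and the loop in lower case, 5′ to 3′ on the strand of the gene.
HIST1H2AC: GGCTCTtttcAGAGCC
HIST1H2BD: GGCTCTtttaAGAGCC
HIST1H4J: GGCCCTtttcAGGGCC
HIST1H4I: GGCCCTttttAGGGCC
HIST1H3E: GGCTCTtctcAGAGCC
HIST1H2AG: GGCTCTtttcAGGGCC
The first form, at chr6:26124669-26124684 on the plus strand in HIST1H2AC, was shared by 17 genes. The form of HIST1H2BD (chr6:26158587-26158602, plus strand) was shared by 5 genes of the H2B and H3 classes. All 8 H4 genes with a stem-loop had one of the 2 forms with the arms GGCCCT and AGGGCC, the form of HIST1H4J (chr6:27824459-27824474, plus strand) in 5 and that of HIST1H4I (chr6:27139654-27139669, plus strand) in 3. HIST1H3E (chr6:26225596-26225611, plus strand) and HIST1H2AG (chr6:27133515-27133530, plus strand) each had a form of their own. In 24 of the 32 genes the model ran on for over 100 bases past the stem-loop.

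Promoters show a second shared feature. RefSeq (build GRCh38.p14) gave a window of 250 bases before and 50 after the start for 61 of the 71 genes. CCAAT, the box bound by NF-Y, was present on either strand in 51 of the 61 (83.6%), against 35.6% of 27239 other promoters. It was in every H1, H2A, H2B and H3 window, but in 3 of 13 H4 windows. TATAAA, the letters of the TATA box, was searched on either strand and anywhere in the window. It was present in 41 (67.2%), against 11.8% of the other promoters. Such a match need not be the TATA box of that gene, since in HIST1H2BM, HIST1H2BO, HIST1H2AE and HIST1H3E only the reverse form was present. TTTGCAT, which overlaps the octamer bound by Oct-1 and was added to the search with the data known, was present in 21 (34.4%), against 4.42% of the other promoters. It was found in 11 of 16 H2A and 9 of 13 H2B windows, in 1 of 13 H3 windows and in none of the H1 or H4 windows. That H3 window, of HIST1H3D, is the same stretch as the window of HIST1H2AD (chr6:26199244-26199543, minus strand), so the 61 entries lie at 60 different places. In 8 further cases neighbouring windows overlap, and a motif in the overlap counts for both genes. Copies at different places also count for each gene. The windows of HIST2H4A and HIST2H4B have the same letters. Those of HIST2H3A and HIST2H3C, and of HIST2H2AA3 and HIST2H2AA4, are the same sequence shifted by a few bases. The examples below show the 250 bases before the start, with the 3 motifs in capitals on either strand: the highest H2B gene, the highest H2A gene and the highest H4 gene.
HIST1H2BK: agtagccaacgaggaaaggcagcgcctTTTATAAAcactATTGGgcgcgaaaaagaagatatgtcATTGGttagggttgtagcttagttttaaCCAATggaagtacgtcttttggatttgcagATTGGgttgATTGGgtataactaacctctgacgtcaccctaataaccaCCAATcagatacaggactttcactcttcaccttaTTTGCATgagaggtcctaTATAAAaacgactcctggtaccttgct
HIST2H2AC: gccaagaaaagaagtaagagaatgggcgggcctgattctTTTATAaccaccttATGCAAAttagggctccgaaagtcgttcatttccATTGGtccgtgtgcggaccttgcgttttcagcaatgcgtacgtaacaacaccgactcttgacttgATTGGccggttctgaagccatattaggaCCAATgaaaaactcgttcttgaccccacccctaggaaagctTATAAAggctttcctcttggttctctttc
HIST1H4I: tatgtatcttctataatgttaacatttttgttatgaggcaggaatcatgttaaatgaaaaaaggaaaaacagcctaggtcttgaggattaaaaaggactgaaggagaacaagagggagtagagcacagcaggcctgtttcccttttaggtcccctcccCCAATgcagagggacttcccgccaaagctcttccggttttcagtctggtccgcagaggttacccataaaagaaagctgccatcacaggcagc
These windows lie at chr6:27146859-27147108 on the minus strand, chr1:149886668-149886917 on the plus strand and chr6:27139032-27139281 on the plus strand, in the order printed. The HIST1H2BK window held all 3 motifs, and so did that of HIST2H2AC. The HIST1H4I window held CCAAT alone. It lies inside the gene model behind the FPKM of HIST1H4I (chr6:27138588-27139881), which begins before the RefSeq start. A match is a description of letters and does not show that a factor was bound.

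Levels are in FPKM, fragments per kilobase of gene model and per 1000000 fragments, as deposited. The table let whole reads be recovered, 18399558 to 19334633 per library, and 20533 to 21088 genes had a read in each library. The thyroid factors PAX8 (96.3 FPKM in si-circ_0000839 libraries and 95.8 FPKM in NC libraries, means of 3) and FOXE1 were expressed, while NKX2-1, TSHR and SLC5A5 had no read. Leukocyte and endothelial marker sums stayed at or below 0.153 FPKM in every library. The fibroblast marker sum was 14.5 to 19.1 FPKM in si-circ_0000839 libraries and 20.1 to 25.2 FPKM in NC libraries, nearly all of it LUM, with COL1A2 and DCN at or near 0, and its part in the histone values was not tested. At GC-rich genes 2 libraries stood above the mean of the 6, si-circ_0000839 replicate 1 by 0.11 and NC replicate 2 by 0.08 on the log2 scale. The clustered histone genes are GC-rich, with a median of 57.5%, against 49.3% for the genes tested below, and the part of GC in their values was not tested beyond an alternative with the GC trend removed.

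Of the 71 genes, 56 had at least 1 read in at least 1 library, 37 had a read in all 6 and 19 had one in 1 to 5. A read was seen in 78.9% of them, against 80.0% of the 19880 other protein-coding genes. The median of the mean FPKM over the 6 libraries was 0.209 for the clustered histone genes and 0.861 for the other protein-coding genes. A mean of at least 1 FPKM was reached by 12 of the 71 (16.9%), against 48.6% of the others. Only HIST1H2BK and HIST1H1C exceeded a mean of 10 FPKM.

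The 15 genes without a read were spread over the classes. They were HIST1H1T among the H1 genes, HIST1H2AA, HIST1H2AD, HIST1H2AK, HIST1H2AM and HIST3H2A among the H2A genes, and HIST1H2BA and HIST3H2BB among the H2B genes. The H3 class had HIST1H3D, HIST1H3I, HIST2H3C, HIST2H3PS2 and HIST3H3 without a read, and the H4 class had HIST1H4L and HIST2H4A. HIST1H1T, HIST1H2AA, HIST1H2BA and HIST3H3 are known from the testis. A count of 0 allows up to 3 reads, which for these genes is 0.0645 to 0.529 FPKM in a library. Counting touches this list directly. In 7 of the 15, HIST1H2AD, HIST1H2AK, HIST1H2AM, HIST1H3D, HIST2H3PS2, HIST2H3C and HIST2H4A, over 50% of the 50-base stretches of the transcript also occur in another gene. In the first 5 of these, over 50% of the exon bases also lie inside the exons of another gene. How the authors counted a read that matches several genes is not known, and some genes shared to the same degree did have reads, such as HIST1H4K (100% of stretches shared) with 24 reads over the 6 libraries and HIST2H4B (97.2%) with 6. A value of 0 therefore does not show that these 7 genes were silent. Over the whole family, 17 genes had over 50% of their 50-base stretches in another gene and 30 had none.

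**Figure D1:**
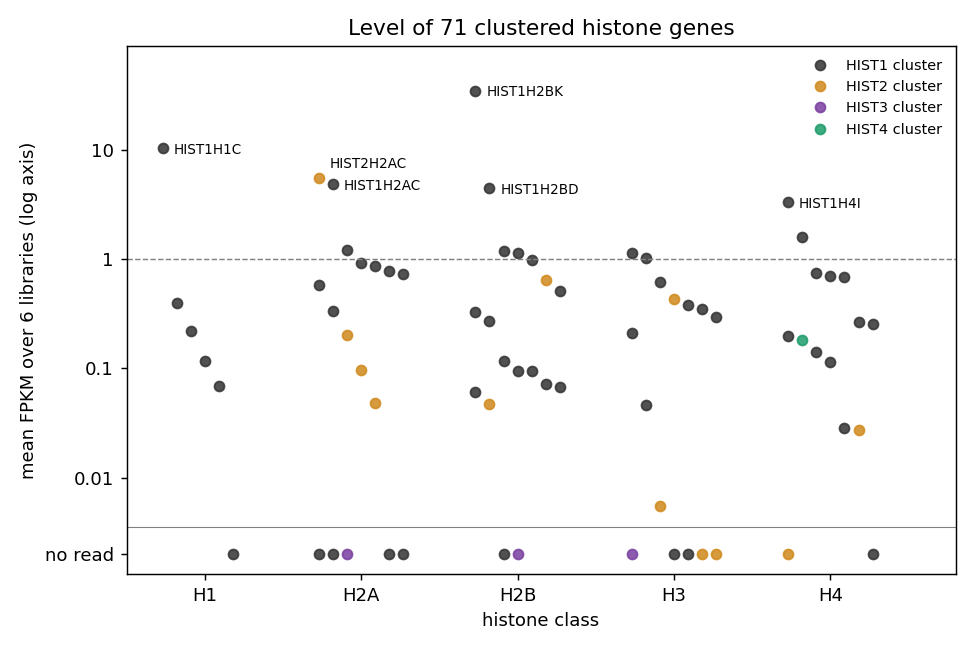
Mean FPKM over 6 libraries of each of the 71 clustered histone genes (log axis), by histone class; each point is 1 gene, coloured by cluster, the dashed line marks 1 FPKM and genes with no read sit in the strip at the bottom. HIST1H2BK at 34.9 FPKM and HIST1H1C at 10.4 FPKM stand above the rest, 12 genes lie above the dashed line and 15 have no read.

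A few genes carried most of the signal. HIST1H2BK alone gave 41.0% of the summed FPKM of the family and 23.4% of its reads, and the top 6 genes gave 74.6% of the FPKM and 67.8% of the reads. By class, the 18 H2B genes gave 52.8% of the summed FPKM, the 17 H2A genes 19.1%, the 6 H1 genes 13.2%, the 15 H4 genes 9.69% and the 15 H3 genes 5.28%. Nucleosomes hold the 4 core histones in equal amounts; these shares describe the RNA counted in each gene model and not protein supply. By cluster, the 55 HIST1 genes on chromosome 6 gave 91.4% of the FPKM, with a read in 46. The 12 HIST2 genes on chromosome 1 gave 8.34%, with a read in 9. None of the 3 HIST3 genes on chromosome 1 had a read, and HIST4H4 on chromosome 12, the only HIST4 gene, had 0.106, 0.276 and 0.105 FPKM in si-circ_0000839 libraries and 0.160, 0.235 and 0.204 FPKM in NC libraries.

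Within H2B, HIST1H2BK (ENSG00000197903, chr6:27146418-27146798, minus strand, 1 exon) had 40.9, 32.7 and 32.4 FPKM in si-circ_0000839 libraries, against 34.2, 34.8 and 34.3 FPKM in NC libraries. Replicate 1 of si-circ_0000839 was the highest of the 6 and the other two were the lowest, so the NC values lay inside the si-circ_0000839 range. The gene model behind this value is the coding sequence alone, at 381 bases, whereas RefSeq gives the gene a span of 8566 bases; reads in the part outside the model were not counted for it. In addition, 74.1% of its 50-base stretches occur in other genes, foremost H2BFS, which makes the value uncertain. HIST1H2BD (ENSG00000158373, chr6:26158146-26171349, plus strand, 2 exon blocks, with 332 bases annotated past the stem-loop) had 5.70, 4.03 and 4.74 FPKM in si-circ_0000839 libraries, against 4.08, 3.66 and 4.64 FPKM in NC libraries. The ranges overlapped, with the highest value in si-circ_0000839 replicate 1. HIST1H2BH had 1.09, 1.28 and 1.13 FPKM in si-circ_0000839 libraries and 1.13, 1.34 and 1.12 FPKM in NC libraries. HIST1H2BJ had 1.72, 0.910 and 0.972 FPKM in si-circ_0000839 libraries and 1.03, 1.10 and 1.16 FPKM in NC libraries. In HIST1H2BJ, too, si-circ_0000839 replicate 1 was the highest library and the other two the lowest.

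In the H2A class, HIST2H2AC (ENSG00000184260, chr1:149886975-149887364, plus strand, 1 exon) had 5.45, 6.26 and 5.57 FPKM in si-circ_0000839 libraries, against 4.89, 6.49 and 4.98 FPKM in NC libraries. NC replicate 2 was the highest library and the other NC libraries the lowest. Of its 50-base stretches 30.5% occur in other genes, foremost HIST2H2AA3. HIST1H2AC (ENSG00000180573, chr6:26124145-26139116, plus strand, 2 exon blocks, with 1114 bases annotated past the stem-loop) had 4.90, 4.72 and 5.70 FPKM in si-circ_0000839 libraries, against 4.76, 4.19 and 4.85 FPKM in NC libraries. Its lowest library was an NC one and its 2 highest were of si-circ_0000839, and the ranges overlapped. HIST1H2AE had 1.5, 1.10 and 1.07 FPKM in si-circ_0000839 libraries and 1.42, 1.19 and 1.03 FPKM in NC libraries, which also overlapped.

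The linker histone genes were led by HIST1H1C (ENSG00000187837, chr6:26055787-26056428, minus strand, 1 exon), which codes for H1.2, at 10.7, 11.2 and 10.2 FPKM in si-circ_0000839 libraries and 9.63, 12.3 and 8.34 FPKM in NC libraries. The NC libraries spread more widely than the si-circ_0000839 libraries and enclosed them. No 50-base stretch of HIST1H1C occurs, letter for letter, in the annotated transcripts of another gene. Of the 2 genes above 10 FPKM it is the one without such shared sequence. The other H1 genes had means of at most 0.400 FPKM, the value of HIST1H1E.

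H4 was led by HIST1H4I (ENSG00000276180, chr6:27138588-27139881, plus strand, 1 exon), with 3.79, 3.14 and 3.57 FPKM in si-circ_0000839 libraries and 3.43, 3.02 and 3.0 FPKM in NC libraries. Its 2 highest libraries were of si-circ_0000839 and its 2 lowest of NC, with overlap between them. HIST1H4J had 0.731, 1.23 and 2.48 FPKM in si-circ_0000839 libraries and 1.52, 1.33 and 2.25 FPKM in NC libraries, the widest spread among the 12 highest genes in the si-circ_0000839 group relative to its mean. It shares 81.2% of its 50-base stretches with other genes, foremost HIST1H4K. The H3 genes were the lowest class in sum. HIST1H3C had 1.46, 1.24 and 0.661 FPKM in si-circ_0000839 libraries and 1.13, 1.34 and 1.02 FPKM in NC libraries. HIST1H3F had 0.796, 0.742 and 0.793 FPKM in si-circ_0000839 libraries, against 0.627, 1.61 and 1.53 FPKM in NC libraries. The si-circ_0000839 libraries of HIST1H3F lay close together, between the low NC replicate 1 and the 2 high NC libraries.

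In the order of levels, HIST1H2BK was above HIST1H1C and HIST1H1C above HIST2H2AC in all 6 libraries with no overlap of their ranges. The ranges of HIST2H2AC, HIST1H2AC and HIST1H2BD overlapped, as did those of HIST1H2BD and HIST1H4I. HIST1H4I stayed above HIST1H4J in every library, and the ranges of the 6 genes from HIST1H4J down to HIST1H3F overlapped.

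**Figure D2:**
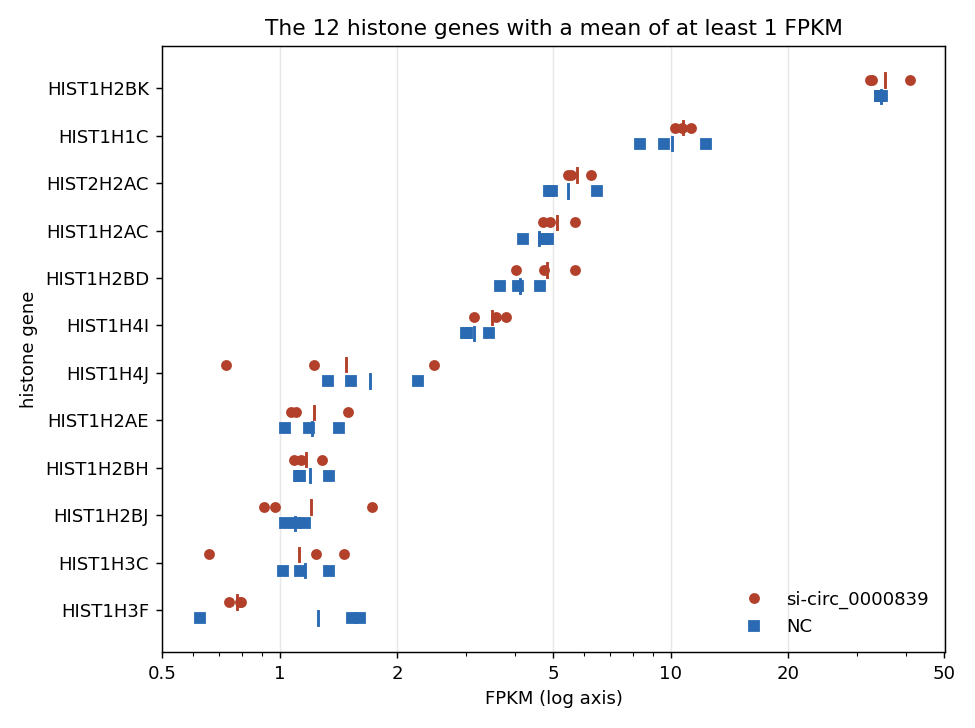
FPKM (log axis) of the 12 clustered histone genes that averaged 1 FPKM or more, ordered by mean; each point is 1 library, circles are si-circ_0000839 and squares NC (3 each), and the short upright lines are group means. In all 12 genes the points of the groups overlap, and HIST1H2BK lies between 32.4 and 40.9 FPKM.

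Many H2A and H2B genes stand head to head and share the stretch between their starts. There were 11 such pairs, with starts of the gene models 218 to 330 bases apart. The H2A gene had the higher mean FPKM in 5, the H2B gene in 4, and both were at 0 in 2. In 2 of the 4, the H2A gene (HIST1H2AD or HIST1H2AM) is among those whose value of 0 does not show silence. Sharing a promoter region did not go with equal levels. HIST1H2BK at 34.9 FPKM faces HIST1H2AH at 0.775 FPKM, a ratio of 45.0. This ratio is uncertain, since 74.1% of the 50-base stretches of HIST1H2BK occur in other genes. The direction was the other way on chromosome 1, where HIST2H2AC had 5.61 FPKM and HIST2H2BE 0.640 FPKM, a ratio of 8.77. HIST1H2AC had 4.85 FPKM and HIST1H2BC 0.975 FPKM, a ratio of 4.98. In HIST1H2BC, NC replicate 3 was at 0.189 FPKM, below the other 5 libraries at 0.977 to 1.28 FPKM. HIST1H2AJ was 12.2 times as high as HIST1H2BM, but 83.7% of its 50-base stretches occur in other genes and HIST1H2BM rested on 3 reads. The 3 other pairs with reads on both sides had ratios of 1.98 to 2.40. These ratios are per length of each gene model, and models that stop at the stop codon are set against models with longer ends in some pairs. In reads the direction turned in 2 pairs, with 70 for HIST1H2AE against 88 for HIST1H2BG, and 148 for HIST1H2AG against 123 for HIST1H2BJ.

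**Figure D3:**
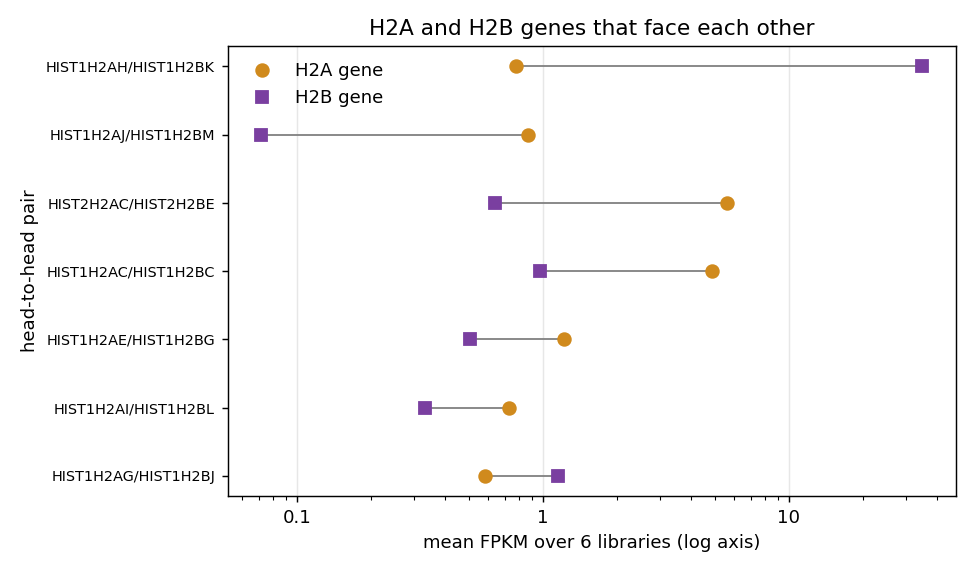
Mean FPKM over 6 libraries (log axis) of the H2A gene (circle) and the H2B gene (square) in the 7 head-to-head pairs with reads on both sides; the grey line joins the 2 genes of a pair. In FPKM the H2B gene is the higher in HIST1H2AH/HIST1H2BK and in HIST1H2AG/HIST1H2BJ, and the H2A gene in the other 5; in reads the direction turns in HIST1H2AG/HIST1H2BJ and in HIST1H2AE/HIST1H2BG.

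The question of the comparison was which genes change when hsa_circ_0000839 is silenced. Summed over the family, the level was 92.4, 83.6 and 84.3 FPKM in si-circ_0000839 libraries and 82.4, 87.8 and 80.6 FPKM in NC libraries. The sums averaged 86.8 ± 4.86 FPKM in si-circ_0000839 libraries and 83.6 ± 3.74 FPKM in NC libraries (SD, n = 3 each), a ratio of 1.04, and the libraries of the groups interleaved. Without HIST1H2BK, in which si-circ_0000839 replicate 1 was the highest library, the sums were 51.4, 50.9 and 52.0 FPKM in si-circ_0000839 libraries and 48.2, 53.0 and 46.3 FPKM in NC libraries. In reads, which weigh longer models more, the family had 58.8, 58.0 and 57.3 reads per 1000000 recovered reads in si-circ_0000839 libraries. In NC libraries it had 55.7, 54.6 and 55.0 reads per 1000000 recovered reads. With recovered reads as the total, the groups did not overlap. Among the single genes tested below, 18.1% had groups without overlap in FPKM. The total differs too: the FPKM were scaled to 18337500 in si-circ_0000839 replicate 1 and 18178900 in NC replicate 2. The recovered reads of these libraries were 18888554 and 18980039. How far the gap between the groups depends on the total used was not tested. Counting error alone gives the lowest si-circ_0000839 library a 95% exact Poisson interval of 53.9 to 60.8 and the highest NC library one of 52.4 to 59.2 reads per 1000000, which is no test of the difference between the groups, and none was run. By class, the ratio of mean summed FPKM in si-circ_0000839 libraries over NC libraries was 1.04 for H1, 1.06 for H2A, 1.07 for H2B, 0.857 for H3 and 0.956 for H4. The H2B ratio rests on si-circ_0000839 replicate 1, since its sums were 53.1, 42.8 and 43.3 FPKM in si-circ_0000839 libraries and 43.7, 43.7 and 43.2 FPKM in NC libraries, and without that library the ratio was 0.989. The H1 ratio was 0.952 without NC replicate 3.

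For each gene, limma was fitted to log2(FPKM + 1) over the 10674 genes that averaged 1 FPKM or more, with Benjamini-Hochberg adjustment over those genes. At an adjusted p under 0.05 it called 41 genes (0.384% of those tested), and 0 of the 12 clustered histone genes that passed the filter. An unadjusted p under 0.05 was reached by 1347 genes (12.6%) and again by 0 of the 12, and groups without overlap in FPKM were seen in 1936 genes (18.1%) and 0 of the 12. The filter used the mean of both groups, and the 59 lower genes of the family were not part of this fit. The log2 changes of the 12 ran from -0.31 to 0.18 with a median of 0.04, against a median of 0.01 over all genes tested; 8 were above 0 and 4 below. The median was 0.0005 without NC replicate 3 and -0.02 when NC replicate 2 and si-circ_0000839 replicate 1 were both left out. The added 1 makes changes of low genes look smaller than they are in FPKM.

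HIST1H2BD had the largest log2 change above 0, at 0.18 (SE 0.11, adjusted p = 0.561 in limma), with means of 4.82 ± 0.84 FPKM in si-circ_0000839 libraries and 4.13 ± 0.49 FPKM in NC libraries (SD, n = 3 each). HIST1H2AC followed at 0.12 (SE 0.09, adjusted p = 0.606 in limma) and HIST1H4I at 0.12 (SE 0.09, adjusted p = 0.628 in limma). All 3 intervals included 0. On the other side, HIST1H3F had the largest change below 0 and the smallest p of the 12, at -0.31 (SE 0.16, 95% interval -0.66 to 0.04, adjusted p = 0.455 in limma), with 0.777 ± 0.030 FPKM in si-circ_0000839 libraries and 1.26 ± 0.55 FPKM in NC libraries. HIST1H4J was at -0.17 (adjusted p = 0.796 in limma) and HIST1H3C at -0.05 (adjusted p = 0.926 in limma).

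How much change the data leave room for differs between genes. For HIST1H2BK the log2 change was 0.03 with a 95% interval of -0.17 to 0.23, which is 0.887 to 1.17 times the NC level in FPKM + 1. For HIST1H1C it was 0.09 with an interval of -0.16 to 0.35, or 0.895 to 1.27 times, and for HIST2H2AC 0.07 with an interval of -0.15 to 0.30. For HIST1H4J the interval ran from -0.65 to 0.31. None of these shows that a gene did not change; they give the range that the spread between the libraries allows.

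**Figure D4:**
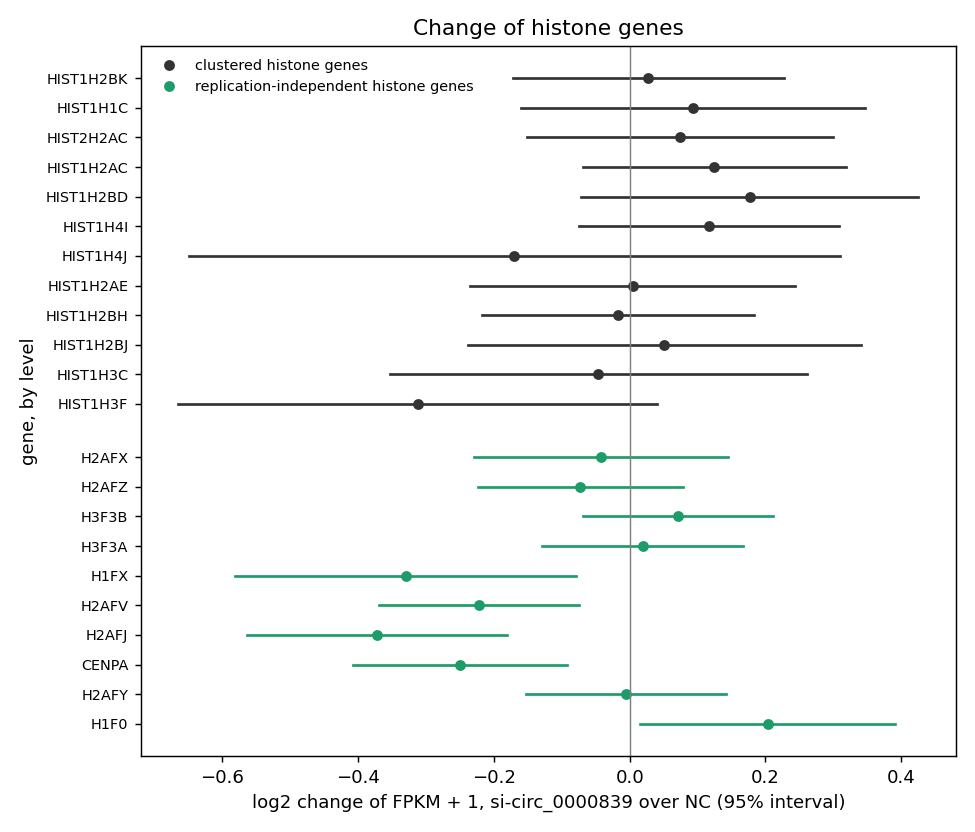
Change of the 12 clustered histone genes (dark) and the 10 tested replication-independent histone genes (green) as log2 of FPKM + 1, si-circ_0000839 over NC; points are limma estimates and lines 95% intervals, each group ordered by level. Every dark interval crosses 0, from HIST1H3F at -0.31 to HIST1H2BD at 0.18, while 5 green intervals do not, where 12.6% of all genes tested had an unadjusted p under 0.05; none of the 10 genes passed the adjusted threshold.

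Members differed in whether annotated sequence runs on past the stem-loop. The 24 genes with over 100 such bases summed to 20.3, 18.8 and 19.7 FPKM in si-circ_0000839 libraries, against 18.0, 16.9 and 17.6 FPKM in NC libraries, a ratio of 1.12 with no overlap between the groups. The 35 genes whose models stop at the stop codon summed to 65.1, 60.2 and 56.8 FPKM in si-circ_0000839 libraries and 58.9, 64.5 and 55.7 FPKM in NC libraries, a ratio of 1.02 with overlap; it was 0.980 with si-circ_0000839 replicate 1 left out and 0.984 with NC replicate 3 left out. HIST1H2AC, HIST1H2BD and HIST1H4I, which had the 3 largest log2 changes above 0 among the genes tested, hold most of the first sum. In each of these 3 genes the groups overlapped. Among all single genes tested, 18.1% had groups without overlap. The grouping was made with the values known and is given without a test. When NC replicate 2 and si-circ_0000839 replicate 1 were both left out, the ratio of the first group was 1.08. The FPKM of a longer model draws on reads past the stem-loop as well, and the model of HIST1H4I also covers sequence before its RefSeq start. These sums therefore do not tell stem-loop messages from longer ones.

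**Figure D5:**
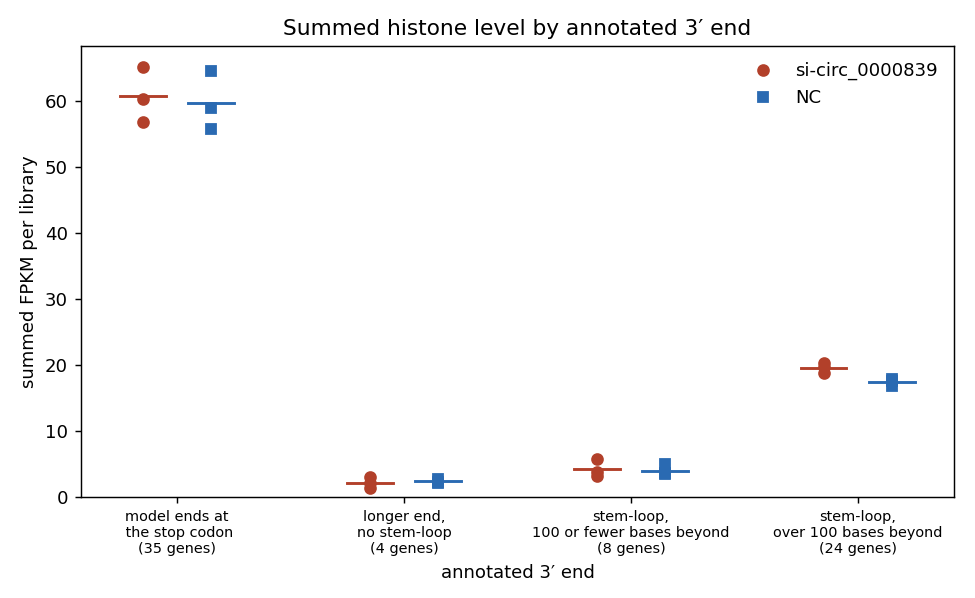
Summed FPKM per library of the 71 clustered histone genes, divided by how far the gene model runs past the stop codon and stem-loop; circles are si-circ_0000839 and squares NC libraries (3 each), and horizontal lines are group means. In the 24 genes with over 100 bases past the stem-loop, the si-circ_0000839 libraries lie at 18.8 to 20.3 FPKM, above the NC libraries at 16.9 to 18.0 FPKM, and in the other 3 sets the libraries of the groups overlap. The sets were made with the values known, and no test was run.

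Below the filter, values rested on few reads. A second fit over all 26557 genes with any value above 0 called 4 genes (0.0151%), and 0 of the 56 clustered histone genes with a read. At an unadjusted p under 0.05 it had 2016 genes (7.59%) and 4 of the 56 (7.14%), and groups without overlap were seen in 3180 genes (12%) and in 2 of the 56 (3.57%). The shares of the family were thus at or below the background. The genes named next from this fit were picked after their values were seen. HIST2H2BF, an H2B gene, had 0, 1 and 0 reads in si-circ_0000839 libraries and 5, 6 and 5 reads in NC libraries. All NC libraries were above all si-circ_0000839 libraries, and the read ratio was 0.0625 with an exact 95% interval of 0.00149 to 0.402 that covers counting error only. Its adjusted p was 0.317 in limma, and 26.9% of its 50-base stretches occur in other genes, foremost HIST2H2BA. HIST1H3A had 0, 0 and 3 reads in si-circ_0000839 libraries and 4, 6 and 3 reads in NC libraries (adjusted p = 0.578 in limma), with overlap at 3 reads. HIST1H4F was the other gene without overlap, but on 1 read or fewer per si-circ_0000839 library, and it had 1 read in NC replicate 2 also. HIST1H2BL ran the other way, with a total of 14 reads in si-circ_0000839 libraries and 4 reads in NC libraries (adjusted p = 0.648 in limma).

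Levels of the 14 replication-independent histone genes ran from no read in H1FOO and H1FNT up to several times the highest clustered gene. H2AFX, whose message can end in a stem-loop or a poly(A) tail, had 273 ± 20.6 FPKM in si-circ_0000839 libraries and 282 ± 21.6 FPKM in NC libraries (SD, n = 3 each), above the sum of all 71 clustered genes. H2AFZ, the gene of the variant H2A.Z, had 241 ± 9.24 FPKM in si-circ_0000839 libraries and 253 ± 4.53 FPKM in NC libraries. The H3.3 genes H3F3B and H3F3A had means of 92.2 and 50.7 FPKM in si-circ_0000839 libraries and 87.7 and 49.9 FPKM in NC libraries. Of the 14 genes on this list, 10 were tested and 0 called, with a median log2 change of -0.06, 3 above 0 and 7 below. The groups did not overlap in 5 of the 10, H2AFJ, CENPA and H2AFV with lower and H3F3B and H1F0 with higher values in si-circ_0000839 libraries, where 18.1% of all genes tested did not overlap. H2AFJ, an H2A variant, had the smallest p, with 15.5, 14.7 and 15.5 FPKM in si-circ_0000839 libraries, against 18.8, 22.9 and 18.6 FPKM in NC libraries. All of its si-circ_0000839 libraries were below all NC libraries, at a log2 change of -0.37 (SE 0.09, adjusted p = 0.113 in limma). H2AFJ was called in 3 of the 19 alternatives. These were quantile normalization, voom on the recovered reads and protein-coding genes alone, at adjusted p = 0.0493, 0.0369 and 0.0351 in limma. The rest did not call it, at adjusted p up to 0.411 in limma. The 3 settings also called more genes in all, 63, 118 and 125 against 41 in the main fit. H2AFV, a second H2A.Z gene, averaged 26.8 ± 1.15 FPKM in si-circ_0000839 libraries and 31.4 ± 0.88 FPKM in NC libraries (SD, n = 3 each; adjusted p = 0.218 in limma). CENPA, the centromeric H3, had 14, 15.1 and 14.7 FPKM in si-circ_0000839 libraries and 17.1, 18.8 and 16.8 FPKM in NC libraries (adjusted p = 0.202 in limma). The linker variants went in different directions without being called, H1FX at a log2 change of -0.33 (adjusted p = 0.275 in limma) and H1F0 at 0.20 (adjusted p = 0.359 in limma). H1F0 itself was low, at means of 3.70 FPKM in si-circ_0000839 libraries and 3.09 FPKM in NC libraries. H2AFY, the macroH2A gene, was at -0.01. H2AFY2 and H3F3C averaged under 1 FPKM and were not tested.

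The machinery around histone messages was detected. On the list for their transcription and 3′ end processing, 27 genes were tested and 0 called, with a median log2 change of 0.04, 15 above 0 and 12 below. The groups did not overlap in 7 of the 27, where 18.1% of all genes tested did not overlap: LSM10, CSTF2, CDK2 and CRAMP1 with higher and CCNE1, CCNE2 and WDR33 with lower values in si-circ_0000839 libraries. LSM10 and CDK2, like H2AFV above, were chosen after their values were seen. LSM10, of the U7 particle that cuts histone messages, averaged 51.1 ± 2.48 FPKM in si-circ_0000839 libraries and 44.6 ± 1.08 FPKM in NC libraries (SD, n = 3 each; adjusted p = 0.281 in limma). CDK2, the kinase partner of cyclin E, had 21.1, 22.1 and 20.9 FPKM in si-circ_0000839 libraries and 19.7, 19.3 and 19.2 FPKM in NC libraries (adjusted p = 0.441 in limma). SLBP had 43.0, 39.0 and 41.7 FPKM in si-circ_0000839 libraries and 44.9, 42.4 and 44.5 FPKM in NC libraries, which overlapped (adjusted p = 0.647 in limma). CCNE1, cyclin E1, had 4.83, 4.27 and 4.03 FPKM in si-circ_0000839 libraries, against 5.42, 5.35 and 5.33 FPKM in NC libraries. CCNE2, cyclin E2, had 0.893, 1.09 and 1.12 FPKM in si-circ_0000839 libraries, against 1.75, 1.19 and 1.74 FPKM in NC libraries. Neither cyclin E gene was called, at log2 changes of -0.25 (adjusted p = 0.244 in limma) and -0.32 (adjusted p = 0.270 in limma). NPAT was below the filter, at 0.347, 0.452 and 0.375 FPKM in si-circ_0000839 libraries and 0.657, 0.591 and 0.781 FPKM in NC libraries, on 48 to 112 reads a library. Its groups did not overlap, and in the fit without a filter its adjusted p was 0.451 in limma. CASP8AP2, also known as FLASH, which takes part in the 3′ end processing of histone messages, had 0.429 ± 0.11 FPKM in si-circ_0000839 libraries and 0.616 ± 0.22 FPKM in NC libraries, with overlap.

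Of the histone chaperones, which carry new histones to DNA, 20 were tested and 0 called, with a median log2 change of 0.06. Of the 20, 15 were above 0 and 5 below. The groups did not overlap in 4 genes with higher values and 1 with lower values in si-circ_0000839 libraries. CABIN1, of the HIRA complex, had the smallest p, at a log2 change of 0.20 (adjusted p = 0.366 in limma). All 32 S phase genes on the list were tested and 0 were called, with a median log2 change of 0.0014, 17 above 0 and 15 below. Higher values without overlap in si-circ_0000839 libraries were seen in 2, UHRF1 and CDC45. Lower values without overlap were seen in 6, RRM1, TYMS, RRM2, CCNE1, PRIM1 and CCNE2. Of all genes tested, 18.1% did not overlap. An unadjusted p under 0.05 in limma was reached by 6 of the 32, and by 12.6% of all genes tested. PCNA, the sliding clamp of DNA replication, had 193 ± 9.85 FPKM in si-circ_0000839 libraries and 183 ± 8.71 FPKM in NC libraries (adjusted p = 0.733 in limma). PRIM1, a primase subunit, had the smallest p of that list, with 3.84 ± 0.17 FPKM in si-circ_0000839 libraries and 4.70 ± 0.24 FPKM in NC libraries (adjusted p = 0.241 in limma).

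RNAs that are known to lack a poly(A) tail were read as a companion to the histone levels. Of 16 such names, with RMRP listed in 2 rows, 13 rows were listed at 0 in all 6 libraries, among them RN7SK, RN7SL1 and RMRP. RNU4ATAC, SNORD3A and TERC reached at most 1.30 FPKM in a library. RN7SL2 was far higher, at 260, 195 and 145 FPKM in si-circ_0000839 libraries and 191, 221 and 196 FPKM in NC libraries. The part of the library preparation and of the counting of multi-copy genes in these zeros, and in the low histone levels, was not tested.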

How the data were processed

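RNA of TPC1 cells was sequenced in 6 libraries, 3 of si-circ_0000839 and 3 of NC. The deposited table holds FPKM per gene, made by the authors; the submitters' processing notes name HISAT2 2.0.5 and featureCounts 1.5.0-p3. No source used here gives the strand setting, the treatment of reads that match several genes or the genome build. All 58735 gene IDs had the same place in GENCODE 29 (GRCh38). In 27 rows a symbol turned into a date by a spreadsheet was replaced by ID.

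Multiplying FPKM by gene length gave whole reads in all values (100% within 0.01 of a whole number). Library pairs of 1 group differed by more than sampling noise (chi-square per degree of freedom 3.14 to 10.8), so none was counted as a repeat of another. Groups were compared with limma 3.58.1 (R 4.3.3, trended prior) on log2(FPKM + 1), after a filter at a mean of 1 FPKM, with Benjamini-Hochberg adjustment. With 3 libraries against 3 an exact permutation test cannot go below p = 0.1, so none was used. The fit was tested on simulated data.

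The family and the gene lists were chosen with earlier results of these data known. Genes were named by rule: the 12 highest, the highest of each class and cluster, the 3 largest changes each way and the smallest p; among other genes, a fixed set and the smallest p of each list. Alternatives covered the pseudocount, the filter, scaling, GC, a replicate block, voom and left-out libraries. Sequences are from GENCODE 29 and RefSeq (GRCh38.p14); proteins were not used here. Depth limits the low genes: 3 reads were the limit that a count of 0 allows.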

Additional observations from a re-analysis of the deposited data

How the results depend on the processing

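The number of clustered histone genes called was 0 under the 19 alternatives run, with limma throughout. Their median log2 change stayed between -0.02 and 0.09, and the ratio of summed FPKM, recomputed under the 9 that rescale or leave out libraries, between 1.0 and 1.06. The number of genes called over the whole table, 41 (14 higher and 27 lower), moved more: 4 without a filter on low values, 68 at a minimum of 5 FPKM, 63 with quantile normalization (29 higher and 34 lower), 118 with voom on recovered reads, 125 with protein-coding genes alone and 220 with the GC and length trend removed (111 higher and 109 lower). Rescaling to TPM gave 56, of which 32 were higher and 24 lower. It was 20 to 38 when each library was left out in turn (21 without si-circ_0000839 replicate 1, 22 without si-circ_0000839 replicate 3, 25 without NC replicate 1 and 20 without NC replicate 3) and 26 when NC replicate 2 and si-circ_0000839 replicate 1 were both left out. These settings also differ in the number of libraries and of genes tested, and the cause of the moves was not tested. For H2AFJ, the log2 change of -0.37 was -0.39 with quantile normalization and -0.40 with voom. Libraries with the same replicate number did not deviate together (r = -0.15, -0.29 and 0.15), so the numbers were not taken as pairs; with the replicate block 35 genes were called, and 102 with the block and the GC and length trend removed. The edgeR alternative was not run; voom was the fit on recovered reads.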
